A study of Mus musculus with 9 samples.

Results

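The genes described here are the 10 dual-specificity phosphatases of MAP kinases, Dusp1, Dusp2, Dusp4, Dusp5, Dusp6, Dusp7, Dusp8, Dusp9, Dusp10 and Dusp16, of 30050 genes measured. They were chosen by name, with earlier results of these data known. Each was measured by 1 transcript cluster (the probes grouped for 1 transcript) that the platform annotation gives a single symbol, and all 10 were found. The data were log2 expression values on 9 Affymetrix arrays of HL-1 cells, which the labels describe as a mouse cardiomyocyte line of heart origin, with 3 arrays in each of 3 groups. DOX+IFN-γ cells received 0.3 µM doxorubicin together with 20 ng/ml interferon gamma, DOX cells received 0.3 µM doxorubicin, and Con cells received phosphate-buffered saline. Doxorubicin is a chemotherapy drug that poisons topoisomerase II and breaks DNA, and interferon gamma is an immune cytokine that acts through JAK and STAT proteins. All cells were kept in DMEM with fetal bovine serum. How long the cells were treated is not stated in the labels. No array came from cells given interferon gamma without doxorubicin, so the effect of interferon gamma alone was not measured. Arrays are named below by group and replicate number (Con 1). The labels do not say that the 3 arrays of a group are separate cultures, so the p-values cover array-to-array spread that could be technical alone.

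MAP kinases become active when a threonine and a tyrosine in their activation loop are phosphorylated, and the phosphatases described here remove both phosphates and so switch the kinases off. By textbook grouping, Dusp1, Dusp2, Dusp4 and Dusp5 encode inducible nuclear enzymes, Dusp6, Dusp7 and Dusp9 encode cytoplasmic enzymes that prefer the kinase ERK, and Dusp8, Dusp10 and Dusp16 encode enzymes that prefer the stress kinases JNK and p38. Several of them are transcribed in response to the kinases they inactivate and act as negative feedback. In the mouse heart, loss of Dusp6 is known to raise basal ERK phosphorylation and the number of cardiomyocytes.

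Promoter sequences are shown for the 3 genes that rose after doxorubicin and for Dusp1, the 1 member called lower in a comparison. That comparison was DOX+IFN-γ against Con, and the call was lost when some single arrays were left out. Between DOX and Con, where the 3 others rose, Dusp1 was not called. The sequences are from RefSeq, build GRCm38.p6, and run from 250 bases before to 50 bases after a transcript start, where 8 of the 10 members were listed. The Dusp6 window was chr10:99262981-99263280 on the plus strand, that of Dusp8 chr7:142095235-142095534 on the minus strand, that of Dusp10 chr1:184034131-184034430 on the plus strand and that of Dusp1 chr17:26508423-26508722 on the minus strand. Each is written 5′ to 3′ on its gene's strand, and capitals mark the cyclic AMP response element TGACGTCA and the GC box GGGCGG, read on both strands.
Dusp6: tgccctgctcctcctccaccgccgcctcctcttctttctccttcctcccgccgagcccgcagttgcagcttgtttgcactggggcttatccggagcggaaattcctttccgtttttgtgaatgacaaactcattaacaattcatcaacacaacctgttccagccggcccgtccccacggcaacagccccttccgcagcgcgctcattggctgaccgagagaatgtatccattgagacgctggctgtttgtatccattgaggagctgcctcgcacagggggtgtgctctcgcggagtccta
Dusp8: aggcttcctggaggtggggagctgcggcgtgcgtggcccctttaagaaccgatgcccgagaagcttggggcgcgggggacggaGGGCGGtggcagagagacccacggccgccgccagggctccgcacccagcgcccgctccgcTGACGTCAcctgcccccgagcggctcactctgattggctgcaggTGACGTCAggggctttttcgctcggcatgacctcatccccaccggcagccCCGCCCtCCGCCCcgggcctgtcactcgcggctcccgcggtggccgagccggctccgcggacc
Dusp10: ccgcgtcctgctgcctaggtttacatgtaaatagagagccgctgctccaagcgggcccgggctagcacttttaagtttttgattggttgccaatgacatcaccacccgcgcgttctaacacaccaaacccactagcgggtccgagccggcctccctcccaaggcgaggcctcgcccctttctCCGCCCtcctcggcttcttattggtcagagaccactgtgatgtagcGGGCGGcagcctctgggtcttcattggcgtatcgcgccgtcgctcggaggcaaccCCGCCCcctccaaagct
Dusp1: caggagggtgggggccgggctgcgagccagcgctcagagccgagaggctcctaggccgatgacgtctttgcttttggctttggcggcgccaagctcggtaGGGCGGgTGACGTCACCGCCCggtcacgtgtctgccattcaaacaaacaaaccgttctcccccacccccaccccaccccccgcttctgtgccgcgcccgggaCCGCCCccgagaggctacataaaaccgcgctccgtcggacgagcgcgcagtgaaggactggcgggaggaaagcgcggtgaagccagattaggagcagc

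The letters TGACGTCA, which factors of the CREB and ATF family are known to bind, occurred in the windows of Dusp8 (2 matches, which began 107 and 63 bases before the start) and Dusp1 (1 match, which began 143 bases before it). They occurred in 1.8% of the 32544 distinct promoter windows of the table. The CArG box, which serum response factor is known to bind, had 2 adjacent matches in Dusp5, in the window chr19:53528895-53529194 on the plus strand, and a match in 1.64% of all windows. GGGCGG occurred in 7 of the 8 member windows, with Dusp6 as the exception, against 35.9% of all windows, and GC boxes lie beside the TGACGTCA of Dusp1 without overlapping it. The AP-1 letters TGANTCA (7.79% of all windows), the letters TATAAA (13.6%) and the p53 half-site (8.36%) had no match in the 8 windows, each read on both strands. The member windows held between 57.3% (Dusp6) and 78.7% (Dusp7) of G and C, against a median of 53% over the table. The motifs were chosen with the sequences in view, and a match is a description of these letters only.

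**Figure D1:**
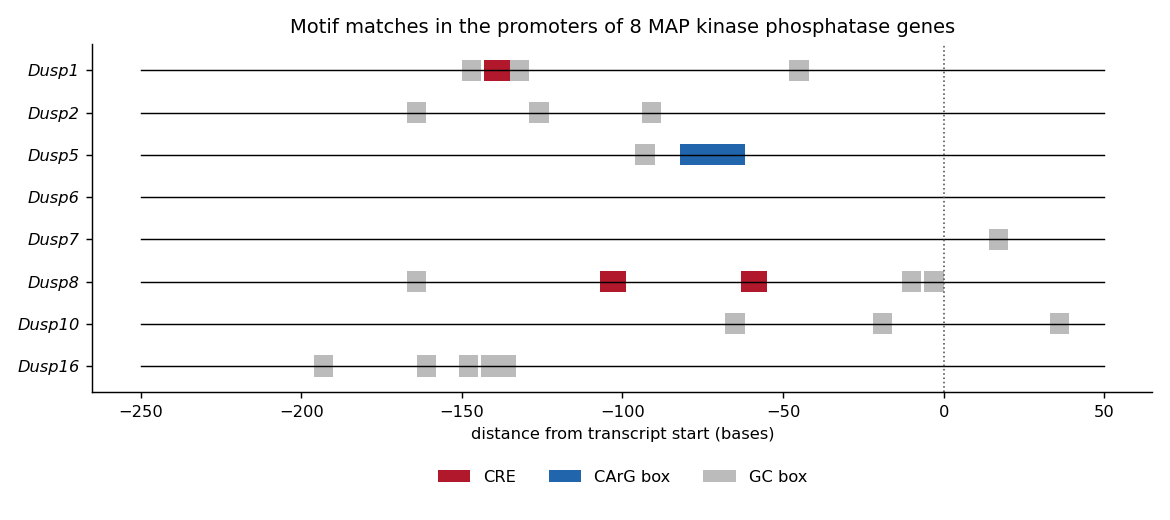
Positions of TGACGTCA (CRE), CArG box and GGGCGG (GC box) matches in the 8 promoter windows, with the distance from the transcript start in bases on the x axis and a row for each gene. TGACGTCA stands in Dusp8 and Dusp1, the CArG boxes in Dusp5, and Dusp6 has none of these matches.

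Of the 10 phosphatase genes, 5 (Dusp1, Dusp6, Dusp7, Dusp8 and Dusp10) had a mean over the 9 arrays above 4.71 on the log2 scale, the 95th percentile of 1523 olfactory and vomeronasal receptor genes, which these cells are not known to use. This receptor limit was passed by 40% of all genes. Dusp16 lay just under it at 4.69, and Dusp5 (4.28), Dusp9 (3.88), Dusp4 (3.88) and Dusp2 (3.31) lay further below. A dim probe can understate a change, so the small differences of these 5 genes carry less information than those of the brighter ones. Levels of different genes come from different probes and were not compared with each other.

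Array medians lay between 4.08 and 4.17, and the median difference over all genes was -0.01 in DOX minus Con. In Con, 3 of 15 heart muscle markers (Tnnt2, Tnnc1 and Nkx2-5) lay above the receptor limit while Myh6, Nppa and Gata4 did not, so several defining heart markers were dim in cells labelled as cardiomyocytes. Above the limit were also 4 of 10 skeletal muscle markers (Myod1 and Myog, transcription factors of the skeletal muscle lineage, with Acta1 and Myh3), 4 of 7 fibroblast markers (Col1a1, Col1a2, Col3a1 and Postn) and 3 of 4 smooth muscle markers (Cnn1, Acta2 and Tagln), against 0 of 6 endothelial and 0 of 7 immune markers. Summed log2 levels of the heart muscle markers were 68.25 to 68.76 in DOX+IFN-γ and 68.61 to 69.36 in DOX, against 69.82 to 70.45 in Con. Those of the smooth muscle markers were 37.14 to 37.55 in DOX+IFN-γ and 37.39 to 38.07 in DOX, against 39.35 to 39.79 in Con. Those of the skeletal muscle markers were 47.31 to 48.18 in DOX+IFN-γ and 47.96 to 48.9 in DOX, against 51.59 to 52.64 in Con. Those of the fibroblast markers were 57.39 to 57.94 in DOX+IFN-γ and 57.41 to 57.5 in DOX, against 60.52 to 61.99 in Con. In such bulk RNA, fewer cells of a type and less RNA per cell cannot be told apart, and the part of these shifts in the results below was not tested. Con 1, the 3 DOX arrays, DOX+IFN-γ 1 and DOX+IFN-γ 2 shared a largest value of 19.9315. The other 3 arrays reached 19.9262 (DOX+IFN-γ 3), 19.9079 (Con 2) and 19.8161 (Con 3). No label explains this split, which rests on the largest value of each array alone and is used below as a block. Whether it marks a batch was not tested. Con 1 is the only Con array on its side.

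Doxorubicin raised 3 of the 10 phosphatase genes and lowered none. Dusp6, the ERK-selective cytoplasmic phosphatase, rose 3.4-fold, Dusp8, a phosphatase of the stress kinases, rose 1.71-fold, and Dusp10, which prefers p38 and JNK, rose 1.19-fold. The other 7 did not pass the test, and among the nuclear phosphatases (Dusp1, Dusp2, Dusp4 and Dusp5) none was called. Of these nuclear genes only Dusp1 lay above the receptor limit, so the others carry less information. The 3 called genes all lay above it. Over all genes tested, 8.06% were called higher, 7.53% lower and 15.6% in either direction, and the median difference of the 10 members was 0.01, close to the -0.01 of all genes. With genes under the receptor limit left out, 2441 of 12023 were called higher and 2306 lower. Tests were limma's moderated two-sided tests over all genes, with Benjamini-Hochberg adjustment and a call at an adjusted p under 0.05.

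**Figure D2:**
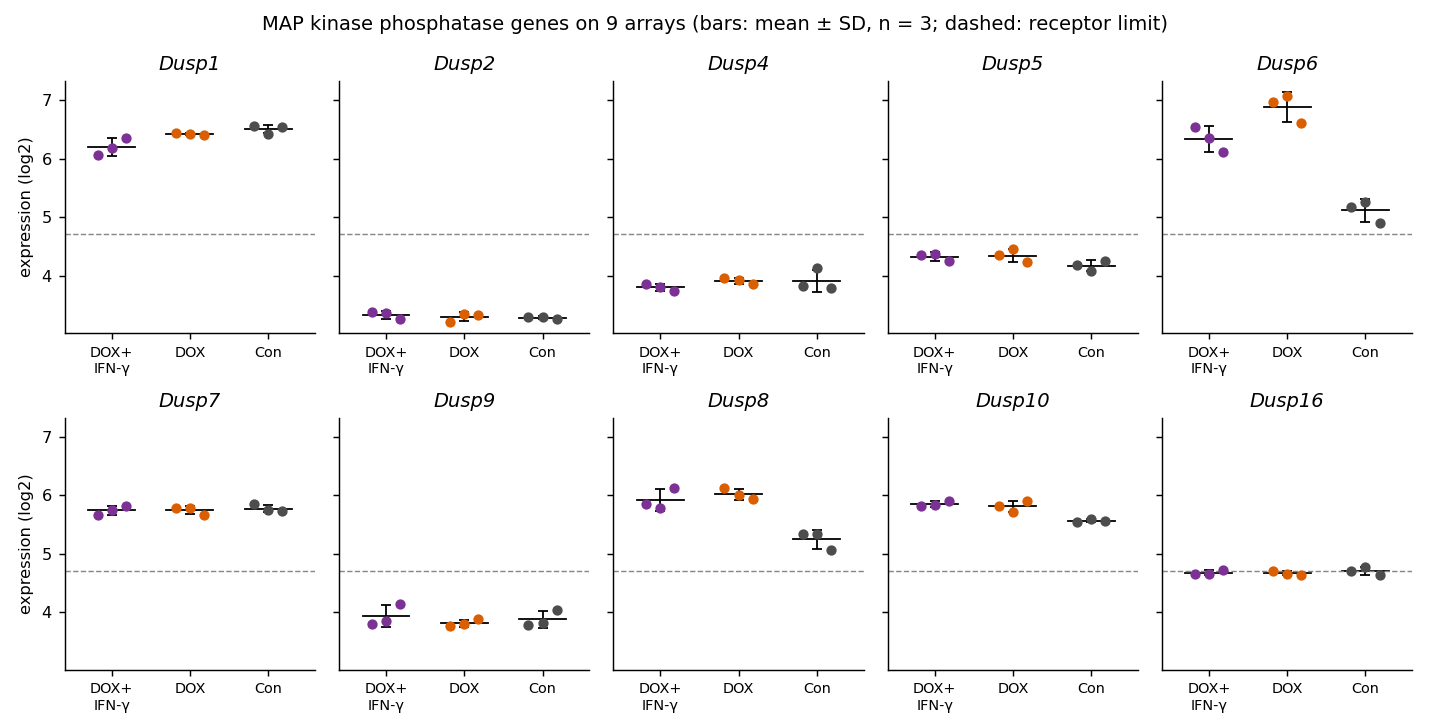
Log2 expression (y axis) of the 10 phosphatase genes on each array, with points for arrays in replicate order, lines and bars for the group mean ± SD (n = 3) and a dashed line at the receptor limit of 4.71. Groups run from DOX+IFN-γ over DOX to Con, and both treated groups lie above every Con array for Dusp6, Dusp8 and Dusp10.

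Dusp6 read 6.97, 7.08 and 6.60 in the DOX arrays, against 5.18, 5.27 and 4.90 in the Con arrays. Every DOX array lay more than 1 log2 unit above the highest Con array, and the groups did not overlap. The means were 6.88 ± 0.25 in DOX and 5.12 ± 0.19 in Con (SD, n = 3 each), a difference of 1.77 (SE 0.16, 95% interval 1.41 to 2.13, limma adjusted p = 0.000149). This was rank 62 from the top among the 30050 differences, within the highest 0.206%. Within groups, the pooled SD of Dusp6 was 0.22, larger than that of 87.2% of genes and above the median gene's 0.11.

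Dusp8 read 6.12, 6.01 and 5.94 in the DOX arrays, against 5.34, 5.34 and 5.07 in the Con arrays. All DOX arrays were higher than all Con arrays, and Con 3 was the lowest. The difference was 0.77 (SE 0.11, 95% interval 0.52 to 1.03, limma adjusted p = 0.0018), which lay within the highest 1.9% of all genes. Within the arrays that shared the largest value the differences were 0.68 for Dusp8 and 1.70 for Dusp6, each from 3 DOX arrays and 1 Con array.

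Dusp10 read 5.82, 5.72 and 5.91 in the DOX arrays, against 5.54, 5.59 and 5.56 in the Con arrays. The groups did not overlap, but the gap between the lowest DOX and the highest Con array was small. The difference was 0.25 (SE 0.059, 95% interval 0.12 to 0.39, limma adjusted p = 0.0215), and 10.3% of all genes had a rise as large or larger. Leaving out Con 1, Con 2, DOX 1 or DOX 3 ended the call (limma adjusted p up to 0.0711), as did a fit of DOX and Con alone (limma adjusted p = 0.0522). The arrays did not overlap for 3 members, all higher, against 15.7% of all genes higher without overlap, 17.2% lower and 32.9% in either direction.

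The remaining phosphatases differed little between DOX and Con. Dusp1, a nuclear enzyme induced early by stress and growth factors, read 6.44, 6.42 and 6.41 in DOX arrays, against 6.57, 6.42 and 6.53 in Con arrays, a difference of -0.08 (limma adjusted p = 0.576), and the groups overlapped. Dusp7, a cytoplasmic relative of Dusp6, averaged 5.74 ± 0.07 in DOX and 5.77 ± 0.06 in Con (SD, n = 3 each). Its difference of -0.03 had a 95% interval of -0.17 to 0.11, so a change of the size of Dusp6 lies outside it. Dusp5, a nuclear phosphatase specific for ERK, averaged 4.34 ± 0.11 in DOX and 4.17 ± 0.09 in Con under the receptor limit, a difference of 0.17 (95% interval -0.0005 to 0.34, limma adjusted p = 0.182). Dusp2, Dusp4, Dusp9 and Dusp16 differed by 0.02, 0.0015, -0.06 and -0.04. Over all 7 that did not pass, the 95% intervals reached from -0.31 to 0.34 and limma adjusted p ran from 0.182 to 0.995.

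With interferon gamma added, the same 3 genes were higher than in Con and Dusp1 was lower. Of the 10 members, 3 rose and 1 fell, while 8.01% of all genes were called higher, 9.41% lower and 17.4% in either direction. DOX+IFN-γ and DOX were compared with the same 3 Con arrays, so these differences are not independent of those above and are given side by side.

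Dusp6 read 6.55, 6.36 and 6.11 in the DOX+IFN-γ arrays, all above the Con arrays given above. The mean was 6.34 ± 0.22 in DOX+IFN-γ and 5.12 ± 0.19 in Con (SD, n = 3 each), and the rise of 1.22 (SE 0.16, 95% interval 0.86 to 1.58, limma adjusted p = 0.000961) was 2.34-fold. The level order of the 3 groups was therefore DOX, DOX+IFN-γ and Con from high to low, with no overlap between neighbours, although the step between DOX+IFN-γ and DOX did not pass the test. Within the arrays that shared the largest value the rise over Con was 1.27, and within the other 3 it was 1.03.

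Dusp8 read 5.86, 5.78 and 6.13 in the DOX+IFN-γ arrays and differed from Con by 0.68 (SE 0.11, 95% interval 0.42 to 0.93, limma adjusted p = 0.00345). Dusp10 read 5.81, 5.83 and 5.90 and differed by 0.29 (SE 0.059, 95% interval 0.15 to 0.42, limma adjusted p = 0.011). For both genes the DOX+IFN-γ and DOX arrays overlapped, and both treated groups lay above Con. The call of Dusp10 in this comparison held in all 17 alternative settings, with limma adjusted p up to 0.0401.

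Dusp1 read 6.06, 6.18 and 6.36 in the DOX+IFN-γ arrays, against 6.57, 6.42 and 6.53 in the Con arrays. All DOX+IFN-γ arrays lay below all Con arrays, and DOX+IFN-γ 3 lay nearest to them. Dusp1 averaged 6.20 ± 0.15 in DOX+IFN-γ and 6.51 ± 0.08 in Con (SD, n = 3 each), a fall of -0.31 (SE 0.078, 95% interval -0.49 to -0.13, limma adjusted p = 0.0266). Leaving out Con 1, Con 3, DOX+IFN-γ 1 or DOX+IFN-γ 2 ended the call (limma adjusted p up to 0.0835), and it was also lost in a fit of the 2 groups alone (limma adjusted p = 0.0758) and with the split of arrays by largest value as a block (limma adjusted p = 0.0582). Within the arrays that shared the largest value the difference was -0.45 (2 DOX+IFN-γ arrays and 1 Con array), and within the others it was -0.12 (1 and 2 arrays).

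The 6 members that did not pass in this comparison, Dusp2, Dusp4, Dusp5, Dusp7, Dusp9 and Dusp16, differed by -0.11 to 0.15, with limma adjusted p from 0.222 to 0.817. The lowest, that of Dusp4, was -0.0019 without Con 2 and -0.18 without Con 3. The array values of these 6 genes overlapped between DOX+IFN-γ and Con. Dusp7 lay between 5.67 and 5.82 in DOX+IFN-γ, between 5.67 and 5.79 in DOX and between 5.73 and 5.84 in Con. Dusp16, whose enzyme acts on JNK, lay between 4.66 and 4.73 in DOX+IFN-γ, between 4.64 and 4.72 in DOX and between 4.64 and 4.77 in Con, with a pooled SD of 0.05 below that of most genes. For Dusp7 and Dusp16 all 3 groups overlapped. Dusp5 lay between 4.24 and 4.37 in DOX+IFN-γ, between 4.23 and 4.45 in DOX and between 4.08 and 4.25 in Con. Dusp4, a nuclear phosphatase induced by ERK, lay between 3.74 and 3.86 in DOX+IFN-γ, between 3.85 and 3.95 in DOX and between 3.78 and 4.13 in Con. The Con arrays of Dusp4 overlapped both treated groups, and its values lay under the receptor limit. Dusp9, a cytoplasmic phosphatase known from placenta, lay between 3.80 and 4.15 in DOX+IFN-γ, between 3.77 and 3.88 in DOX and between 3.78 and 4.05 in Con. Dusp2, a nuclear phosphatase known from immune cells, lay between 3.26 and 3.38 in DOX+IFN-γ, between 3.22 and 3.35 in DOX and between 3.26 and 3.30 in Con. Arrays of DOX+IFN-γ and Con did not overlap for 4 of the 10 members, Dusp1, Dusp6, Dusp8 and Dusp10, against 33.0% of all genes, 14.5% higher and 18.5% lower.

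**Figure D3:**
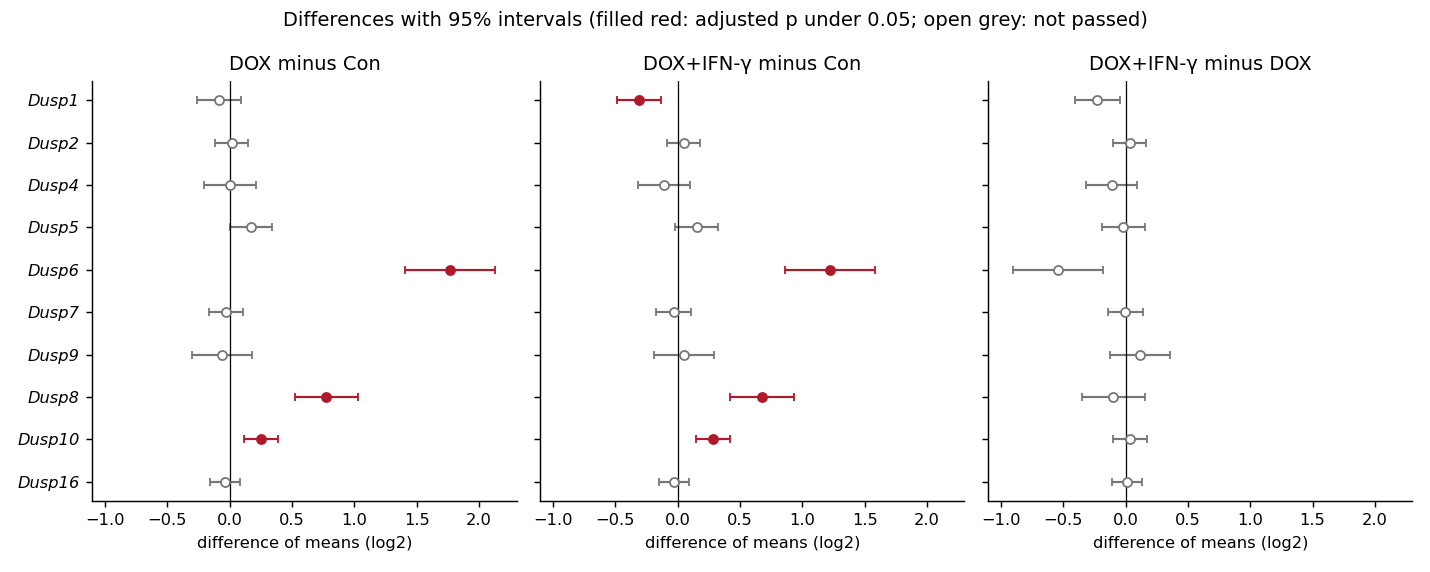
Differences of group means (x axis, log2) with 95% intervals for the 10 phosphatase genes (rows) in the 3 comparisons, with filled points where the adjusted p was under 0.05. Dusp6 has the largest difference in each panel, 1.77 in DOX minus Con, 1.22 in DOX+IFN-γ minus Con and -0.54 in DOX+IFN-γ minus DOX, and no point of the last panel passed the test.

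Between DOX+IFN-γ and DOX no phosphatase gene was called. By limma 0 of the 30050 genes passed here (0% in each direction), also with a trended robust prior. An unadjusted p under 0.05 was reached by 1503 of the 30050 genes and by 2 of the 10 members. The count over all genes is close to the share of 0.05 that this threshold passes where no gene differs. Those 2 members, Dusp6 and Dusp1, are named after their values were seen. This comparison uses the same DOX arrays as DOX minus Con, so the differences of a gene in these comparisons are not independent.

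Dusp6 was lower in each DOX+IFN-γ array (6.55, 6.36 and 6.11) than in the lowest DOX array (6.60), and the difference was -0.54 (SE 0.16, 95% interval -0.90 to -0.18), a ratio of 0.686. The limma adjusted p was 0.966 (unadjusted 0.0082), so the difference did not pass over all genes. It lay between -0.68 and -0.43 in all 17 alternative settings and passed in none of them (lowest limma adjusted p = 0.515). The highest DOX+IFN-γ array and the lowest DOX array were close together.

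Dusp1 was likewise lower in each DOX+IFN-γ array (6.06, 6.18 and 6.36) than in the DOX arrays (6.44, 6.42 and 6.41), with a difference of -0.23 (SE 0.078, 95% interval -0.40 to -0.05, limma adjusted p = 0.976, unadjusted 0.0188). The SD of Dusp1 was 0.15 in DOX+IFN-γ and 0.01 in DOX. The groups did not overlap for 2 of the 10 members, both lower, against 6.69% of all genes lower without overlap, 4.56% higher and 11.2% in either direction. The 8 other members differed by -0.11 (Dusp4) to 0.12 (Dusp9). The difference of Dusp9 was 0.0093 without DOX+IFN-γ 3 and 0.19 without DOX+IFN-γ 1.

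**Figure D4:**
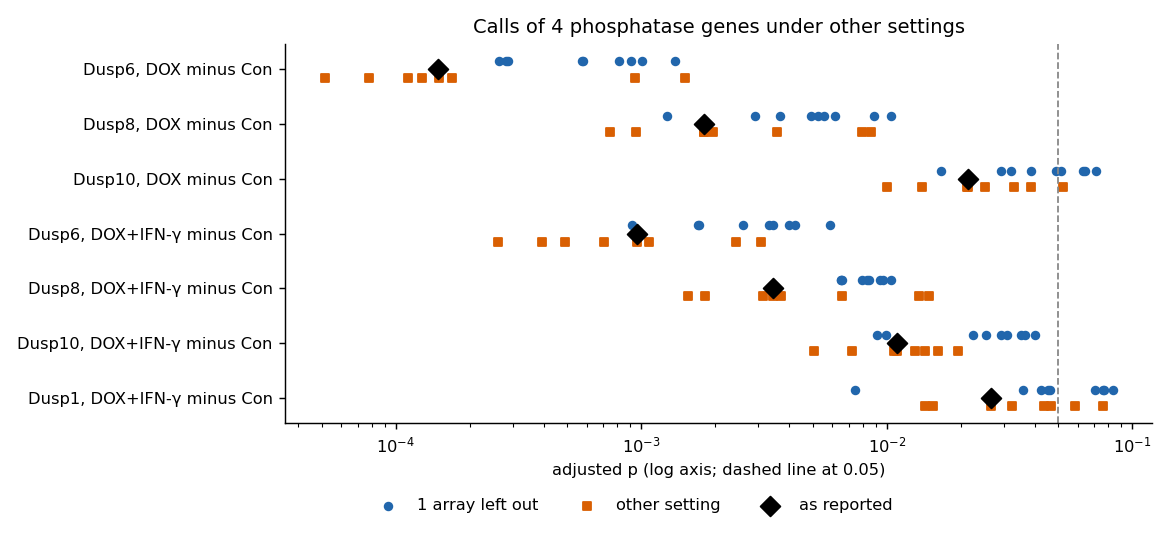
Adjusted p (x axis, log scale) of the 7 called differences of phosphatase genes (rows) as reported (diamonds), with 1 array left out (circles) and under other settings (squares), with a dashed line at 0.05. Dusp6 and Dusp8 stay left of the line in both comparisons, while Dusp10 in DOX minus Con and Dusp1 in DOX+IFN-γ minus Con cross it in some settings.

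By pattern over the 9 arrays, the protein-coding genes above the receptor limit most like Dusp6 were Adcy3, an adenylyl cyclase (Pearson r = 0.986), Slc1a4, a neutral amino acid transporter (0.984), and the predicted gene Gm9631 (0.983), of 7553 searched. Those most like Dusp8 were Cyhr1 (0.982), Fhl2, a LIM domain protein of heart muscle (0.981), and Slc50a1, a sugar transporter (0.981). Those most like Dusp10 were Sat1, an enzyme of polyamine breakdown (0.978), Tigd2 (0.97) and Zfand1 (0.970). Among the members, r was 0.91 between Dusp6 and Dusp8, 0.87 between Dusp8 and Dusp10 and 0.76 between Dusp6 and Dusp10. The 9 arrays fall into Con and treated arrays, so these values mostly describe a shared step between Con and the 6 others. Pearson r leaves out the size of that step. In DOX minus Con, Adcy3 differed by 0.18 and Slc1a4 by 1.61, against 1.77 for Dusp6. Cyhr1 differed by 0.22 and Slc50a1 by 1.12, against 0.77 for Dusp8. Tigd2 differed by 0.18 and Sat1 by 0.94, against 0.25 for Dusp10.

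Upstream of the phosphatases, the ligands and receptors of the growth factor pathway moved in both directions in DOX minus Con. The counts of all lists stand beside the 8.06% of all genes called higher, the 7.53% called lower and a median difference of -0.01. These shares include many dim and noncoding genes. With dim genes left out, 2441 of 12023 genes were called higher and 2306 lower. Among 18268 protein-coding genes 2480 were called higher and 1736 lower. These are larger shares than over all genes, so a list count above 8.06% alone does not set a list apart. Of 16 EGF and FGF family ligands 5 rose and 1 fell, with a median difference of 0.08. Nrg1, a ligand of the receptors Erbb3 and Erbb4, and Tgfa, a ligand of the EGF receptor, each rose by 0.58, and Hbegf, another EGF receptor ligand, rose by 0.38, while Fgf7, a ligand of Fgfr2, fell by 1.10. The growth factors Fgf9 (0.25) and Fgf1 (0.18) rose too, and these and Pdgfrb are named after their values were seen. Nrg1 rose by 0.30 where its clusters were averaged. Without Con 1, 2 ligands were called lower. Of 14 growth factor receptors 3 rose and 2 fell (median 0.004), with Fgfr2 (0.99), the collagen receptor Ddr2 (0.91) and Erbb3 (0.40) higher and Igf1r (-0.49), a receptor of insulin-like growth factors, and Pdgfrb (-0.29), a receptor of platelet-derived growth factor, lower. Hbegf and Erbb3 lay under the receptor limit. Of 18 genes for Ras proteins, adaptors and scaffolds 3 rose and none fell (median 0.005), namely Shc1 (0.89), Rras2 (0.49) and Grb2 (0.33), which link or act below receptors. The call of Rras2 ended when Con 3, DOX 1 or DOX 2 was left out, in the fit of DOX and Con alone and with the array split as a block (limma adjusted p up to 0.0996). That of Grb2 ended when Con 1, Con 2, DOX 1 or DOX 2 was left out (limma adjusted p up to 0.0941). Without DOX 1 or DOX 2 the count of the list was 1, with dim genes left out it was 5 and under quantile normalization 6.

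Among the kinases, Map2k1, which activates ERK, rose by 1.48 (SE 0.097, limma adjusted p = 3.07e-05), and Map2k3 (0.95) and Map2k4 (0.61), which activate p38 and JNK, rose as well, so that 3 of 6 MAP kinase kinases were called higher and none lower (median 0.42), beside 8.06% and 7.53% of all genes. Of 21 kinases above them 5 rose and 3 fell (median 0.08), led by Zak, a kinase of ribosome stress (1.59), Map3k7, which relays cytokine signals (1.04), Araf, a Raf kinase above ERK (0.79), and Taok3 (0.25). The 3 lowered and the fifth raised kinase, Map3k14 (0.19), are named after their values were seen. The count of rises was 3 without Con 1, Con 2 or DOX 1. Those that fell, Map3k5, Map3k4 and Taok2, differed by -0.23, -0.19 and -0.19. The count of falls was 0 without Con 2, DOX 2 or DOX 3 and in the fit of DOX and Con alone, and 1 without Con 3 or DOX 1, under quantile normalization and with the array split as a block. Taok3 lost its call without Con 1, Con 2 or DOX 1 (limma adjusted p up to 0.0665). Of 12 MAP kinases, the targets of the phosphatases, 1 rose and 2 fell (median 0.0091). Mapk9, a JNK gene, rose by 0.91, while Mapk6, an atypical member, differed by -0.46 and Mapk14, the main p38 gene, by -0.21. The call of Mapk14 ended when Con 2, Con 3, DOX 1 or DOX 3 was left out and with the array split as a block (limma adjusted p up to 0.106). Of 7 kinases activated by MAP kinases (median -0.29), Mknk1 rose by 0.39 and Mknk2 fell by 0.94, as did Rps6ka6 by 0.40.

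Of 17 transcripts known as targets of ERK signalling 12 rose and 1 fell, with a median difference of 0.38, beside 8.06% of all genes called higher and a median of -0.01. Epha2, a receptor of ephrins, rose by 1.37, and the AP-1 genes Jun (0.95) and Fosl1 (0.89) and the early response gene Ier3 (0.77) rose as well, while Srf, the serum response factor named here after its value was seen, was the 1 that fell (-0.49). The count of falls was 0 under quantile normalization. When Con 1, Con 2, DOX 1 or DOX 2 was left out the count of rises was 7 in each case. It was 9 with dim genes left out and 9 with the replicate numbers as a block. In DOX+IFN-γ minus Con, which uses the same Con arrays, 7 of the 17 rose and 1 fell, with a median of 0.23. Over all genes 8.01% were called higher and 9.41% lower in that comparison, with a median difference of -0.02. By mean over all arrays 11 of the 17 lay above the receptor limit, and Fosl1 and Ier3 were among those under it.

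Of 6 Sprouty and Spred genes, which encode feedback inhibitors upstream of ERK, Spry2 rose by 0.67 (SE 0.16, limma adjusted p = 0.0257) and Spred2 fell by 0.55, with a median of 0.06 over the list. Spry2 averaged 6.01 in DOX+IFN-γ, 6.39 in DOX and 5.73 in Con. It differed between DOX+IFN-γ and DOX by -0.38 (SE 0.16, limma adjusted p = 0.976), which did not pass. Its call in DOX minus Con ended when Con 1, Con 2, DOX 1 or DOX 3 was left out, with the array split as a block and with the replicate numbers as a block (limma adjusted p up to 0.116). Of 9 other phosphatases of MAP kinases 3 rose, namely the tyrosine phosphatase Ptpn7 (1.03), the p53-induced Ppm1d (0.94) and Ppm1a (0.67), and none fell (median 0.12), beside 8.06% of all genes called higher and 7.53% lower. Of 20 genes in a broad list of atypical dual-specificity phosphatases, which takes in Ssh and Styx genes, 4 rose and none fell (median 0.04). These counts stand beside the same 8.06% and 7.53% of all genes. The 4 that rose were Styxl1 (0.45), Dusp3 (0.35), Ssh3 (0.29) and Dusp12 (0.28). The call of Ssh3 ended in 11 of 17 alternative settings (limma adjusted p up to 0.183) and that of Dusp12 with the array split as a block (limma adjusted p = 0.0595). With that block the count of rises was 2, and the count of falls was 1 among protein-coding genes only, and without Con 3 or DOX 3. Of 11 genes for regulators reported elsewhere to induce members, or linked to p53, 4 rose and none fell (median 0.37), namely Atf4 (0.75), Mdm2 (0.64), Atf3 (0.57) and Crem (0.41). Of the CREB and ATF family, Atf4, Atf3 and Crem were called, while Creb1 (0.46, limma adjusted p = 0.14) and Atf2 (0.18, limma adjusted p = 0.654) were not. Cdkn1a, linked to p53, was not called either (0.37, limma adjusted p = 0.118). The uncalled genes are named after their values were seen. Without Con 1, 1 of these 11 was called lower. In DOX+IFN-γ minus Con, with the same Con arrays, 7 of the 11 rose and 1 fell (median 0.50), beside 8.01% of all genes called higher and 9.41% lower. In DOX+IFN-γ minus DOX none of the genes of these 12 lists was called.

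**Figure D5:**
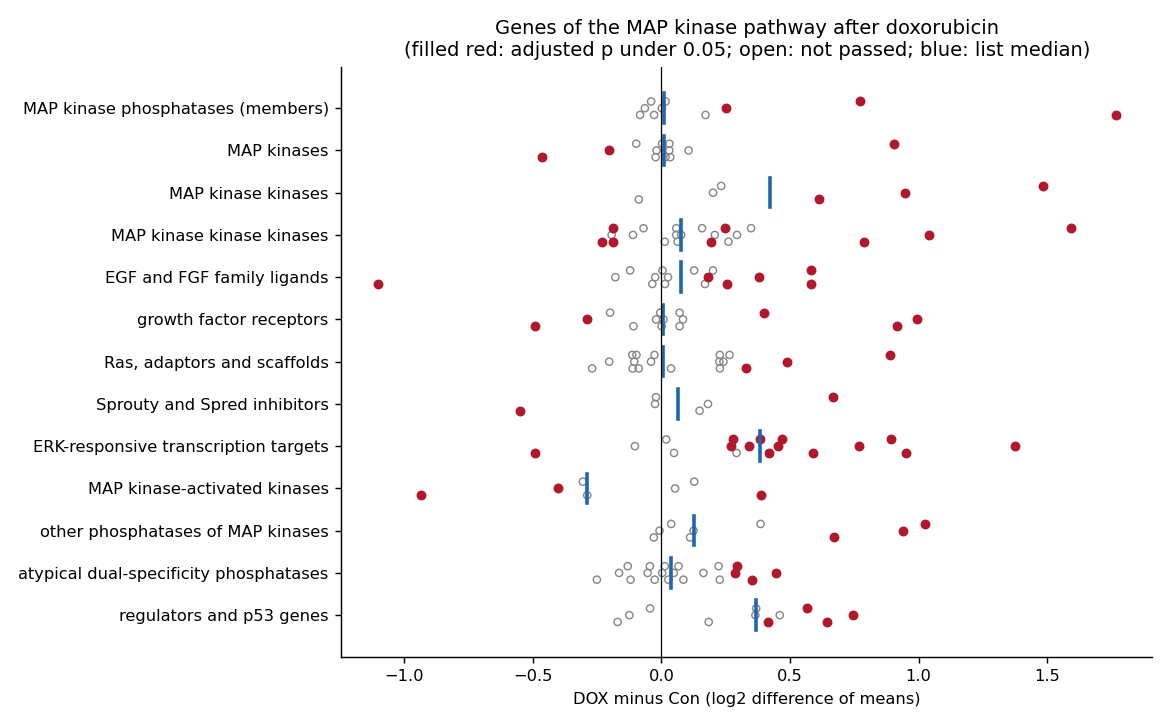
DOX minus Con differences (x axis, log2) of the 10 phosphatase genes and of the genes of 12 MAP kinase pathway lists (rows), with filled points where the adjusted p was under 0.05 and a blue bar at each list's median. The phosphatase genes have a median of 0.01 with Dusp6 far to the right at 1.77, and the targets of ERK have a median of 0.38.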

How the data were processed

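The values for 65527 transcript clusters on 9 arrays, deposited as 1 table, were made with RMA, a method of background correction, normalization and probe summary, per the submitters' processing notes. No version or setting of RMA is stated in the sources used here. That the deposited values are log2 was read from their range (2.29 to 19.9). RMA shrinks differences near background, where small changes can be missed. Clusters with 1 symbol in the platform annotation gave 30050 genes, the cluster with the highest mean standing for a gene. Values were used as deposited. Group means were fitted to all 9 arrays with limma 3.58.1 (lmFit, eBayes) in R 4.3.3, with 6 residual and 2.41 prior degrees of freedom, and the fit was tested on simulated data. With 3 arrays a group, the 95% interval reached ±0.19 around the difference for the median gene. RefSeq (GRCm38.p6) gave gene types and promoters. All members are reported in each comparison, and from each list up to 4 called genes with the largest DOX minus Con difference are named. Per member called in DOX minus Con and above the receptor limit, the 3 genes with the highest Pearson r are named. Members, lists and tests were chosen with earlier results of these data known. Alternatives were quantile normalization, leaving out dim genes, protein-coding genes only, the 2 groups alone, replicate and array-split blocks, a trended robust prior, the mean of a gene's clusters, and leaving out each array. Their use on the pathway lists was added after the data were seen.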

Additional observations from a re-analysis of the deposited data

How the results depend on the processing

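Dusp6 and Dusp8 kept their calls in DOX minus Con and in DOX+IFN-γ minus Con in all 17 alternative settings each, with Dusp6 between 1.62 and 1.91 and between 1.12 and 1.34, and Dusp8 between 0.68 and 0.83 and between 0.57 and 0.75. Members called higher numbered 2 to 3 in DOX minus Con. The count of members called lower in DOX+IFN-γ minus Con, 1 as reported (Dusp1), was 0 in the fit of the 2 groups alone and 0 with the array split as a block, and 0 to 1 when single arrays were left out. In DOX+IFN-γ minus DOX, 0 to 1 gene of the whole table was called lower when single arrays were left out, the 1 without Con 3. The fits without 1 array have fewer samples; beyond that the cause was not tested. The direction turned in 27 of 495 member values, all of differences no larger than 0.065 as reported and with an adjusted p of at least 0.646 under the alternative. With the array split as a block, Dusp2 was -0.0278 and Dusp9 0.0935 in DOX minus Con, and Dusp5 was 0.0081 and Dusp16 -7e-04 in DOX+IFN-γ minus DOX. Under quantile normalization Dusp7 was 0.0022 in DOX+IFN-γ minus DOX. Without single arrays, DOX minus Con ran from -0.0631 to 0.1105 for Dusp4, -0.051 to 0.0102 for Dusp7, -0.1154 to 0.0183 for Dusp9 and -0.0097 to 0.058 for Dusp2. DOX+IFN-γ minus DOX ran from -0.01 to 0.0701 for Dusp2, -0.0399 to 0.0344 for Dusp7, -0.0756 to 0.0361 for Dusp5, -0.014 to 0.0812 for Dusp10 and -0.0141 to 0.0335 for Dusp16. DOX+IFN-γ minus Con ran from -0.0657 to 0.0058 for Dusp7, -0.0624 to 0.002 for Dusp16 and -0.0553 to 0.135 for Dusp9.

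The groups share replicate numbers 1 to 3, but only 3 of 9 same-numbered pairs had deviations from their group means that correlated above 0.1 (range -0.31 to 0.55), and an array correlated best with its own number in 5 of 18 cases, so the numbers were not taken to pair the arrays. With the replicate number as a block, the counts of called members stayed at 3 higher and 0 lower in DOX minus Con, 3 higher and 1 lower in DOX+IFN-γ minus Con and 0 in DOX+IFN-γ minus DOX, and 2270 genes were called higher and 2202 lower over the whole table in DOX minus Con, against 2423 and 2264 without it. In that fit Dusp6 had a limma adjusted p = 0.000128 and Dusp10 an adjusted p = 0.0331 in DOX minus Con.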
